A study of Canis lupus familiaris with 5 samples.

Results

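CLGL-90 is a canine cell line that its labels describe as LGL leukemia and as an LGL T-cell line, LGL standing for large granular lymphocyte. It was 1 of 5 canine lymphoid lines in the study, and its array was set against those of the other 4 lines. The line 17-71 carries the labels B-lymphoid malignancy and B-cell, and GL-1 the labels B-cell leukemia and B-cell. CL-1 is described as a primitive a/b T-cell leukemia and CLL-1390 as a primitive T-cell leukemia, both T-cell lines. All 5 were untreated and grew in RPMI medium with 10% FBS. Each line was measured on 1 array from 1 RNA preparation, so a line has no replicate error. What follows are gaps between single arrays, without tests, and each of them describes these 5 arrays. The labels do not say whether a line is clonal, or how long it had been in culture.

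Large granular lymphocytes are cytotoxic T cells or natural killer cells that have matured to the stage of carrying killing granules. The granules hold perforin, which opens the membrane of a target cell, and granzymes, proteases that enter the target and trigger its death. Such cells also secrete CC chemokines and display Fas ligand. In dogs, expansions of these cells are a recognised form of lymphocytic leukemia, and most of them are T cells that carry CD3.

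A gene was called above in CLGL-90 where its log2 intensity exceeded that of the highest other line by 2 or more (4-fold), and below where it lay 2 or more under the lowest. Of 15115 genes, 101 were above (0.668%) and 24 below (0.159%), so 80.8% of the 125 called genes were on the upper side. The same rule gave 114 genes above (0.754%) and 35 below (0.232%) for 17-71, 145 (0.959%) and 56 (0.37%) for CL-1, 51 (0.337%) and 21 (0.139%) for GL-1, and 61 (0.404%) and 36 (0.238%) for CLL-1390. The count for CLGL-90 thus lay inside the range of the other lines in both directions, and its number of called genes does not set it apart. The gaps above had a median of 2.93 and reached 7.97. Those below had a median of 2.84 and reached 5.38. A gap of 4 or more was seen in 29 genes above and in 4 below. The shares of 0.668% and 0.159% over all genes stand behind every count of list members given later. At these shares a list without calls says nothing particular about its members.

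Against each line singly, far more genes passed a difference of 2. CLGL-90 was higher than 17-71 in 303 genes (2%) and lower in 339 (2.24%), and higher than CL-1 in 318 (2.1%) and lower in 452 (2.99%). It was higher than GL-1 in 267 (1.77%) and lower in 320 (2.12%), and higher than CLL-1390 in 321 (2.12%) and lower in 275 (1.82%). Most single differences were thus shared with other lines, and what follows keeps to genes in which CLGL-90 was outermost or shared its value with a named line.

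**Figure D1:**
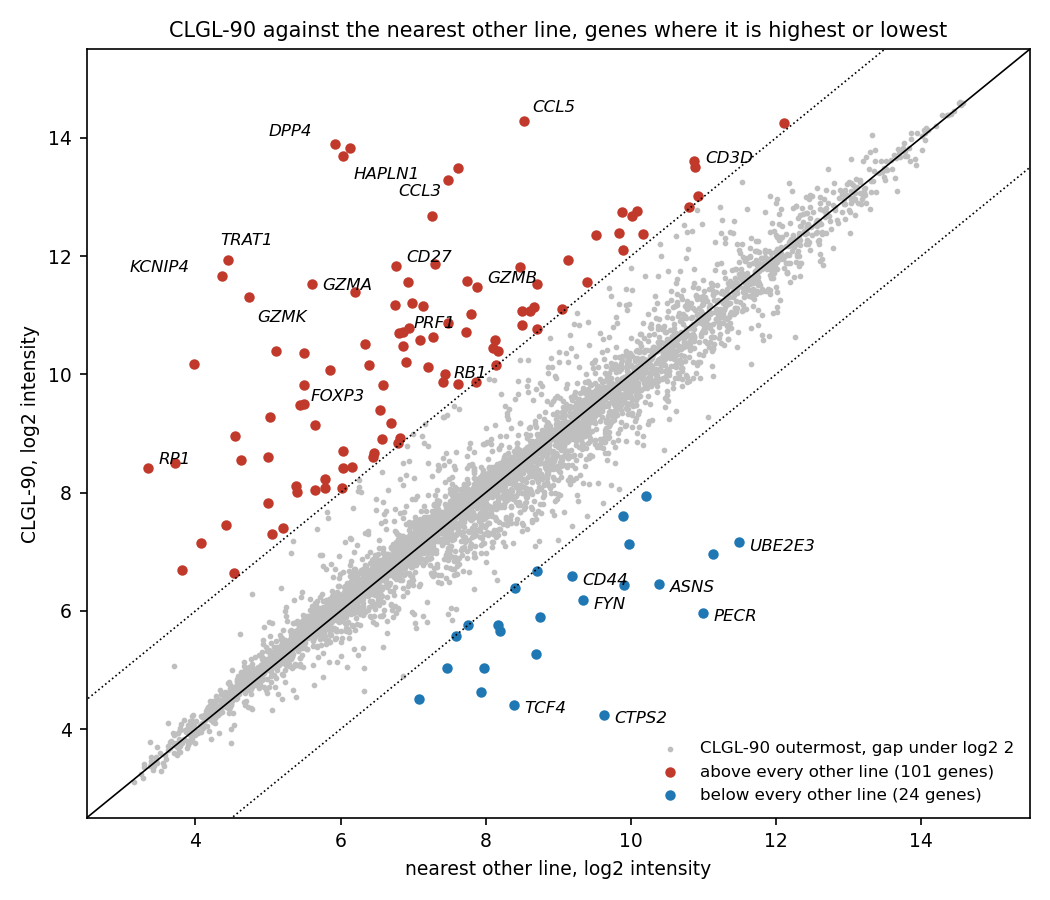
Each point is a gene for which CLGL-90 was the highest or the lowest of the 5 lines. The vertical axis gives its log2 intensity in CLGL-90 and the horizontal axis its log2 intensity in the nearest other line, the dotted lines mark a difference of 2, and grey points lie inside it. The 101 red genes lie up to 7.97 over the diagonal (DPP4), many of them with the other line near background, and the 24 blue genes lie up to 5.38 under it (CTPS2).

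Array medians ran from 6.87 to 6.996, and the median difference of CLGL-90 from the middle of the other lines was 0.06 over all genes. The 59 control probe sets for sequences that dogs lack read at most 6.39 to 6.76 on an array, and this highest control served as a guide to background. In 44 of the 101 genes above, all 4 other lines lay at or under it, so the size of the gap there depends on background. CLGL-90 itself lay over its highest control in 99 of the 101. In 19 of the 24 genes below, CLGL-90 lay at or under its control while all 4 other lines lay over theirs. With each array floored at its highest control, 80 genes stayed above and 11 below. The labels give no date or batch.

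The 6 markers set for the LGL T-cell label (GZMA, GZMB, PRF1, CCL5, DPP4 and TRAT1) were all called above in CLGL-90. Members were chosen with earlier results of these data known, so these calls are no independent check of the label. DPP4 encodes CD26, a surface peptidase of activated T cells that also binds adenosine deaminase. It read 13.89 in CLGL-90, 4.66 in 17-71, 4.53 in CL-1, 5.92 in GL-1 and 4.90 in CLL-1390. The gap of 7.97 was the largest of all genes, and a floor at the controls left 7.19 of it. TRAT1, an adaptor that sits in the membrane beside the T-cell receptor, read 11.93 in CLGL-90, 3.97 in 17-71, 4.32 in CL-1, 4.45 in GL-1 and 4.19 in CLL-1390. No other line, T-labelled or not, had a TRAT1 value over background, and the floor reduced its gap from 7.48 to 5.24. The second probe set of each gene gave the same picture, with a gap of 7.75 for DPP4 and 8.98 for TRAT1.

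Genes that mark other lineages were examined as well. LYZ, S100A9 and S100A8, which mark granulocytes and macrophages, read 4.02, 4.28 and 4.69 in CLGL-90, at background. Of 20 myeloid markers, however, 6 lay over the highest control in CLGL-90, the highest at 8.16. None of the 20 was called in CLGL-90, against 0.668% and 0.159% of all genes, and their median difference was 0.02. Markers of other lineages were mixed. Of 16 B-lineage genes, 6 lay over the highest control in CLGL-90, which was the highest line for 6, and none was called. The B-cell receptor genes CD79A (5.80) and CD79B (4.74) were at background, but CD79B was so in every line, 17-71 (4.71) and GL-1 (4.57) included, so its probe set separated no lineage here. BLNK, the adaptor of that receptor, was highest in CLGL-90 (9.90, gap 1.79), and so was MS4A1, which encodes CD20, at 6.79 against at most 5.87 and just over the control of 6.76. Of 14 progenitor genes, 8 lay over control in CLGL-90 and none was called. DNTT (5.73) and RAG1 (5.32), which act on receptor gene rearrangement, were at background, whereas CD99 (11.92), HOXA9 (9.06), KIT (8.51) and MYB (8.05) were not. Of 16 stromal, endothelial and epithelial genes, 6 lay over control and KRT18 was called above. VIM, found in most blood cells and fibroblasts, read 14.15, and the fibroblast collagen gene COL1A1 5.83. Of 9 erythroid and megakaryocyte markers, 8 lay over control in CLGL-90, the highest at 8.37. None of the 9 was called, and none varied by 2 or more between the lines. The median differences of these 4 lists were 0.20, -0.13, 0.15 and 0.05. The part of other cell types in the results was not tested.

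The labels of other lines did not match every T-cell transcript, which bears on the comparison. CD3D and CD3G encode invariant chains of the T-cell receptor complex. CD3D read 13.51 in CLGL-90, 5.14 in 17-71, 5.44 in CL-1, 9.78 in GL-1 and 10.89 in CLL-1390. GL-1, labelled B-cell, was thus clearly over background and CL-1, labelled T-cell, was not. CD3G repeated the order of high and low lines with 12.69 in CLGL-90, 5.75 in 17-71, 5.34 in CL-1, 10.01 in GL-1 and 8.86 in CLL-1390. Other T-cell genes of CL-1 went both ways. CD247 (11.16), CD28 (11.06) and LCK (8.88) were over background there, and CD2 (6.15) and CD7 (5.38) were not. Because of GL-1 and CL-1, the other lines are named singly below and not grouped by their B or T label. In a culture, fewer cells that carry a transcript and less of it per cell cannot be told apart.

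The measured granzymes and perforin were all higher in CLGL-90 than in the other lines. GZMA, a tryptase-like granzyme, read 11.54 in CLGL-90, 5.41 in 17-71, 5.27 in CL-1, 5.39 in GL-1 and 5.60 in CLL-1390. GZMK, a related granzyme, read 11.30, against 4.47 in 17-71, 3.88 in CL-1, 4.61 in GL-1 and 4.73 in CLL-1390. Both were at background in every other line, with gaps of 5.94 and 6.57. GZMB, the granzyme that cleaves caspases, read 11.48 in CLGL-90, 5.09 in 17-71, 4.81 in CL-1, 7.88 in GL-1 and 4.83 in CLL-1390. Here GL-1 lay over its highest control, the remaining lines did not, and the gap was 3.60. PRF1, perforin, read 10.72 in CLGL-90, 6.87 in 17-71, 6.16 in CL-1, 6.72 in GL-1 and 5.51 in CLL-1390, a gap of 3.86.

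These 4 genes were the only ones called among 11 measured genes of the granule contents (36.4% above and 0 below, against 0.668% and 0.159% of all genes). The list had a median difference of 2.16 against 0.06 over all genes, and of 3.27 without probe sets shared between transcripts. NKG7, a membrane protein of the granules, just missed the call. It read 9.32 in CLGL-90, 7.21 in 17-71, 6.75 in CL-1, 7.09 in GL-1 and 7.47 in CLL-1390, a gap of 1.85, while its other probe sets had gaps of 3.76 and 1.94. Other granule components did not separate the line. SRGN, the proteoglycan that packs granule contents, read 12.39 in CLGL-90 and 7.38 to 11.24 elsewhere. CTSC, the protease that activates pro-granzymes, read 11.87 within a range of 9.54 to 12.79. CTSW, a cathepsin of cytotoxic lymphocytes, was higher in CLL-1390 (10.88) than in CLGL-90 (9.49), with the other lines at 6.57 to 7.29.

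The machinery that moves and fuses the granules was measured in 11 genes, and none was called in either direction, against 0.668% above and 0.159% below over all genes (median difference -0.09). RAB27A, the small GTPase that docks granules at the membrane, read 11.24 in CLGL-90 against 9.80 to 12.14 elsewhere. UNC13D, which primes them for fusion, read 7.48 against 7.28 to 8.34. STX11, a syntaxin needed for release, was at background in CLGL-90 (6.22) and in CLL-1390 (5.84), and read 8.46 in 17-71, 8.87 in CL-1 and 7.13 in GL-1. SYTL3, a synaptotagmin-like protein that binds Rab27 and was on no list, was called above. It read 10.77 in CLGL-90 and 8.71 in CLL-1390, the nearest line, with a gap of 2.06. Its second probe set had 1.84, and the call was lost by the probe set of highest variance and by the median of both (1.95).

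**Figure D2:**
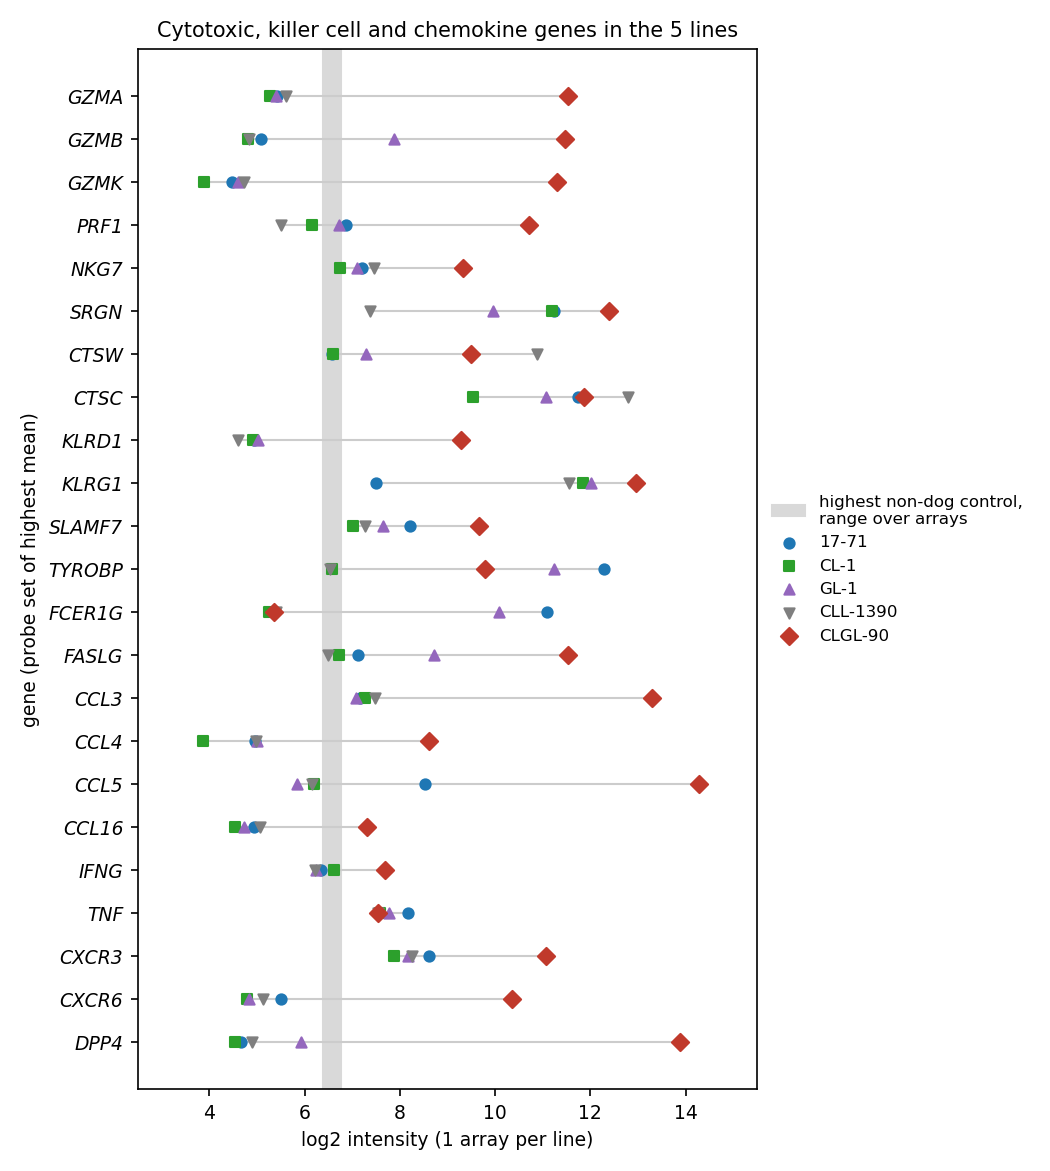
Log2 intensity of cytotoxic granule, killer cell receptor, chemokine and homing genes, 1 point per line and gene, with the grey band giving the range of the highest non-dog control over the arrays (6.39 to 6.76). The diamonds of CLGL-90 stand far to the right for GZMA, GZMK, CCL3, CCL5 and DPP4, whereas FCER1G (5.36) lies at background and TNF (7.55) falls among the other lines.

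Receptors of natural killer cells separated CLGL-90 in 1 case. Of 14 measured receptor and adaptor genes, KLRD1 alone was called above and 0 below, against 0.668% and 0.159% of all genes (median difference 0.25). KLRD1 encodes CD94, which pairs with NKG2 receptors on natural killer and cytotoxic T cells. It read 9.28 in CLGL-90, 4.94 in 17-71, 4.91 in CL-1, 5.03 in GL-1 and 4.61 in CLL-1390, a gap of 4.26 with every other line at background. NCR1, the natural cytotoxicity receptor NKp46, read 5.81 and KLRF1 5.88, both at background in CLGL-90 as in the other lines (at most 5.79 and 5.68). TYROBP, an adaptor of activating receptors, read 9.78 in CLGL-90, under 17-71 (12.29) and GL-1 (11.25). FCER1G, the adaptor used by NKp46 and Fc receptors, was at background in CLGL-90 (5.36) and high in 17-71 (11.09) and GL-1 (10.09). SLAMF7, an activating receptor of lymphocytes, read 9.67 in CLGL-90 against at most 8.22, and a second probe set of it passed the threshold (gap 2.21). KLRG1, an inhibitory receptor of late effector cells, read 12.97 in CLGL-90, but was also high in CL-1 (11.85), GL-1 (12.02) and CLL-1390 (11.55), and 7.50 in 17-71. The genes for NKG2D and granulysin were not analysed here.

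The CC chemokines CCL5, CCL3 and CCL4, which draw other leukocytes to a site of killing, had gaps within the range of the granzymes (3.60 for GZMB to 6.57 for GZMK). CCL5, which cytotoxic cells store and release, read 14.29 in CLGL-90, 8.53 in 17-71, 6.19 in CL-1, 5.84 in GL-1 and 6.15 in CLL-1390. The gap was 5.76, and 17-71 was the only other line over background. CCL3 read 13.29 in CLGL-90, 7.16 in 17-71, 7.27 in CL-1, 7.09 in GL-1 and 7.49 in CLL-1390, a gap of 5.81. CCL4, released together with CCL3, read 8.61 in CLGL-90 and 4.97, 3.86, 5.00 and 4.97 in 17-71, CL-1, GL-1 and CLL-1390. All 4 were at background, and a floor at the controls reduced the CCL4 gap from 3.61 to 1.91, under the threshold. FASLG, the ligand that triggers the death receptor Fas, read 11.52 in CLGL-90, 7.13 in 17-71, 6.73 in CL-1, 8.71 in GL-1 and 6.50 in CLL-1390 (gap 2.81). Its other probe set, at or under the highest control on every array, had a gap of 1.55. FAS itself was at background in CLGL-90 (4.72) and high in 17-71 (9.50).

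Among 28 measured chemokines and effector cytokines, CCL5, CCL3, FASLG and CCL4 were the 4 called above (14.3%, against 0.668% of all genes), with 0 below (0.159% of all genes) and a median difference of 0.15. Several cytokines that effector cells secrete on stimulation were measured, and none of them was called. IFNG, interferon gamma, read 7.70 in CLGL-90, over its highest control and the highest line by 1.08, against 6.22 to 6.62 elsewhere. TNF read 7.55 within 7.54 to 8.18. IL2 (3.78), IL4 (5.34), IL17A (6.04) and CSF2 (6.59) were under the highest control of CLGL-90. IL10 was high in 17-71 (11.83) and read 6.50 in CLGL-90.

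The receptors through which cells follow chemokines showed a narrow pattern. CXCR6 guides effector T cells into tissue. It read 10.36 in CLGL-90, 5.50 in 17-71, 4.79 in CL-1, 4.84 in GL-1 and 5.12 in CLL-1390, a gap of 4.86. CXCR3, the receptor for interferon-induced chemokines, read 11.07 in CLGL-90, 8.62 in 17-71, 7.89 in CL-1, 8.18 in GL-1 and 8.25 in CLL-1390, and its 2 probe sets had gaps of 2.46 and 1.91. CCR2 (7.18 against 5.27 to 5.34) had a gap of 1.84, under the threshold. Receptors of naive or other helper T cells were not high: CCR7 read 6.64 in CLGL-90 and 9.42 in CL-1, CCR4 6.01 and 8.61, and CCR8 6.88 and 13.34. Of 32 measured genes of homing and adhesion, CXCR6 and CXCR3 were above and CD44 below, against 0.668% and 0.159% of all genes.

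CD44, the hyaluronan receptor that marks memory and effector T cells, was at background in CLGL-90. It read 6.59 there, 9.62 in 17-71, 11.84 in CL-1, 11.07 in GL-1 and 9.19 in CLL-1390, a gap of 2.60. A second probe set had a gap of 1.91. The third, with 6.50 in CLGL-90 and 6.37 to 7.16 elsewhere, separated no line, and by the median of the 3 the gap was 1.91, under the threshold. The integrin subunit ITGB1 was low in both CLGL-90 (7.67) and CL-1 (7.77) and read 10.47 to 11.80 in the other lines. ITGA4, its partner in VLA-4, was at background in CLGL-90 (5.97) and 17-71 (5.41) and read 7.97 to 10.13 in the others. ITGB7, another partner of ITGA4, read 12.63 in CLGL-90 and 12.95 in 17-71.

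The T-cell receptor complex was the next set of members. CLGL-90 was the highest line for 3 of the 4 CD3 subunits. CD3D and CD3G were called with gaps of 2.62 and 2.67, and the second CD3D probe set had 2.45. CD3E was not called by the probe set that stood for it, which read 10.24 in CLGL-90, 8.13 in 17-71, 7.81 in CL-1, 7.91 in GL-1 and 8.48 in CLL-1390 (gap 1.77). Its other probe set read 12.80 in CLGL-90 against 5.53 to 8.58, a gap of 4.22. CD247, the zeta chain, read 10.64 in CLGL-90 and 11.16 in CL-1, and at most 6.58 in the others. GL-1 and CLL-1390, which had CD3D and CD3G, thus lacked CD247 over background, and CL-1, which had CD247, lacked CD3D and CD3G. CLGL-90 was the only one of the 5 arrays with CD3D, CD3G and CD247 all over its highest control.

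Called genes that carry only a locus number included 3 that the reference gene table places near genes which flank T-cell receptor loci in mammals. LOC480788, a C_region entry between EPHB6 and PRSS2, read 14.26 in CLGL-90, 7.24 in 17-71, 7.16 in CL-1, 12.12 in GL-1 and 7.91 in CLL-1390. LOC607937, a protein-coding entry between CHGA and DAD1, read 13.60 in CLGL-90, 8.60 in 17-71, 8.60 in CL-1, 10.87 in GL-1 and 9.37 in CLL-1390. LOC609263, a C_region entry between AMPH and STARD3NL, read 11.82 in CLGL-90, 3.62 in 17-71, 3.61 in CL-1, 4.12 in GL-1 and 8.47 in CLL-1390. As background, EPHB6 and PRSS2 lie beside or within the beta chain locus, DAD1 beside the alpha and delta locus, and AMPH and STARD3NL beside the gamma locus. The table gives these entries no further name, so the chain each probe set measures was not assigned here. CLGL-90 was the highest line for all 3, with gaps of 2.15, 2.74 and 3.36. The other 4 probe sets of LOC480788 showed gaps of 0.22 or less, so its call was lost by the median of its probe sets, while 2 of the other 3 of LOC607937 had gaps of 2.32 and 3.31. Called C_region entries were not limited to these loci. LOC608238, a C_region entry between PRAME and RSPH14, was also above, at 10.39 in CLGL-90 against 7.92 to 8.17.

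Signalling parts behind the receptor were divided. LAT, the scaffold that ZAP70 phosphorylates, read 12.35 in CLGL-90, 9.37 in 17-71, 9.02 in CL-1, 9.53 in GL-1 and 10.62 in CLL-1390, a gap of 1.73. LCK, the kinase that starts receptor signalling, read 11.78 in CLGL-90, 5.58 in 17-71, 8.88 in CL-1, 10.65 in GL-1 and 11.44 in CLL-1390. FYN, the other Src-family kinase of T cells, went the opposite way. It read 6.18 in CLGL-90, at background, and 9.34 in 17-71, 10.31 in CL-1, 10.48 in GL-1 and 9.72 in CLL-1390. The gap of 3.16 rests on 1 probe set. SH2D1A, the adaptor SAP that recruits FYN to SLAM receptors, read 10.98 in CLGL-90 and 9.80 in CL-1, and 3.94 to 4.24 in the other 3 lines.

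Of 31 measured genes of the receptor complex and its proximal signalling, TRAT1, CD3D and CD3G were above (9.68%, against 0.668% of all genes) and FYN below (0.159% of all genes). The median difference was 0.10, and 0.87 without probe sets shared between transcripts. SLA2, an adaptor that dampens receptor signalling and was on no list, was called above (10.45 in CLGL-90, at most 8.10 in the others). So was KCNA3, the potassium channel that sustains calcium entry in effector T cells, with 11.93 in CLGL-90 and at most 9.13 elsewhere. The gene for ZAP70 was not analysed here.

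The co-receptors that divide T cells into helper and cytotoxic classes gave no clear assignment. CD4 read 8.41 in CLGL-90 and 8.10 to 8.43 in the other lines, a flat row that shows neither expression nor its absence. CD8B was flat as well, with 7.52 in CLGL-90 and 7.09 to 7.88 elsewhere. CD8A read 7.89 in CLGL-90, 6.38 in 17-71, 6.49 in CL-1, 6.29 in GL-1 and 6.33 in CLL-1390, and the gap was 1.40. Its second probe set had a gap of 2.26 (6.22 against 3.63 to 3.96), with all 5 arrays under their highest control. CLGL-90 was thus the highest line by both CD8A probe sets, under the threshold by one and at background by the other.

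**Figure D3:**
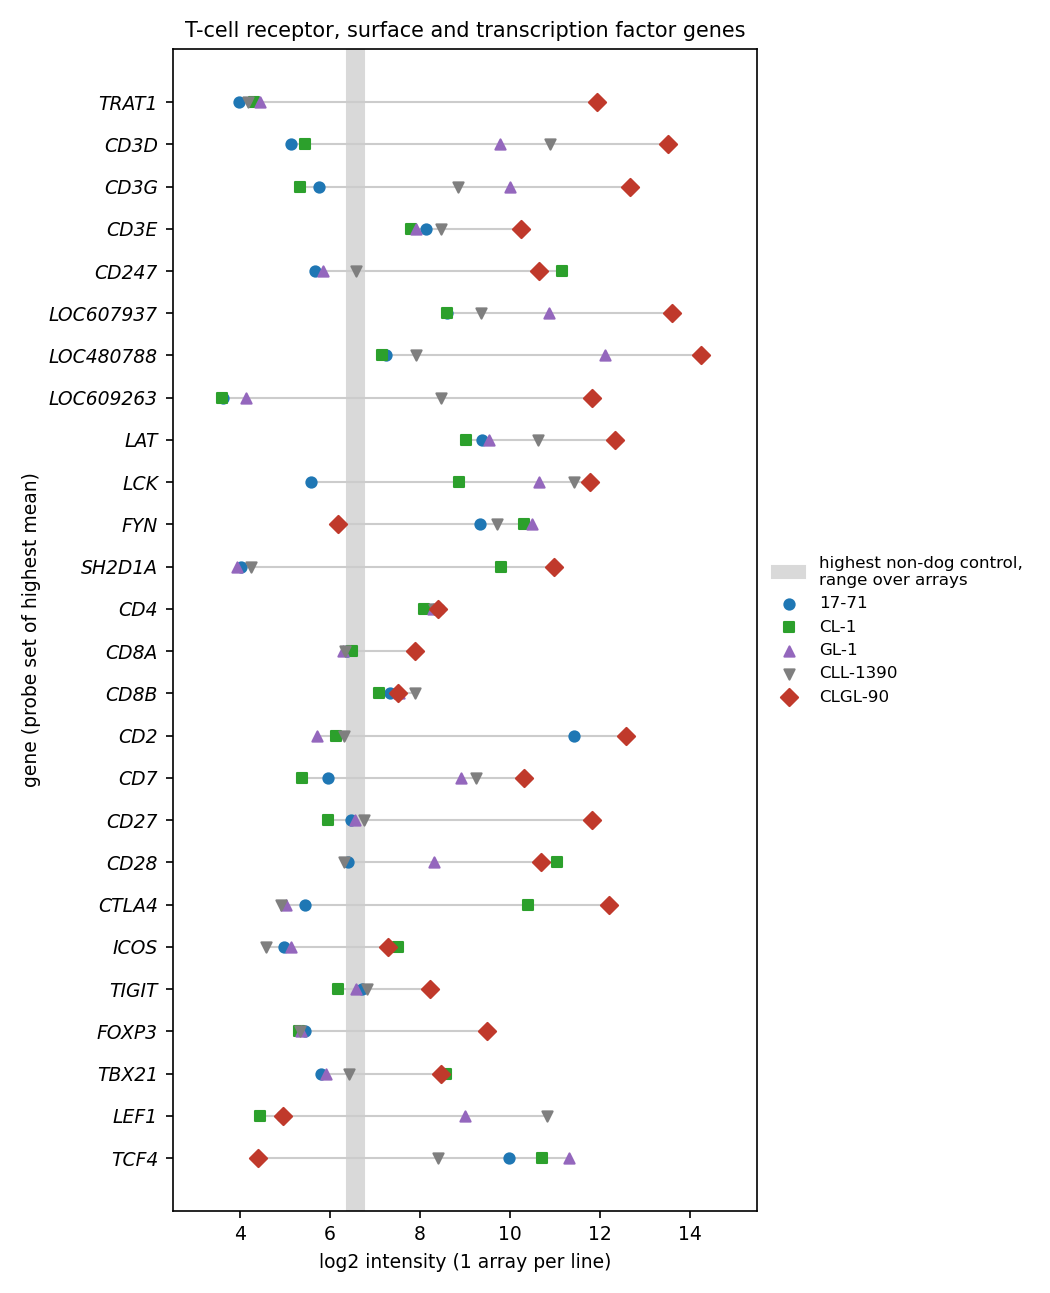
Log2 intensity of genes of the T-cell receptor complex, surface receptors and transcription factors, 1 point per line and gene, with the grey band as the range of the highest non-dog control (6.39 to 6.76). CLGL-90 leads for TRAT1, CD3D, CD3G and CD27, shares CD247, SH2D1A, CTLA4 and CD28 with CL-1, and lies lowest for FYN (6.18) and TCF4 (4.41), whereas the points of CD4 and CD8B coincide across lines.

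Among surface receptors, CD27 was the one member called of 23 measured (0 below), against 0.668% and 0.159% of all genes. The median difference of the list was 0.75, and 1.54 over members that reached log2 7 on an array. CD27, a costimulatory receptor of the TNF receptor family, read 11.83 in CLGL-90, 6.47 in 17-71, 5.96 in CL-1, 6.55 in GL-1 and 6.76 in CLL-1390. Its gap was 5.07, and 2.84 by the second probe set. Other receptors were high in CLGL-90 together with another line. CTLA4, the inhibitory receptor for CD80, read 12.20 in CLGL-90 and 10.40 in CL-1 and lay at background in 17-71 (5.44), GL-1 (5.02) and CLL-1390 (4.91). CD28, the activating receptor for the same ligand, read 10.69 in CLGL-90, 11.06 in CL-1, 8.31 in GL-1, 6.41 in 17-71 and 6.32 in CLL-1390. CD2, an adhesion receptor, read 12.59 in CLGL-90 and 11.42 in 17-71, which is labelled B-cell, against 5.71 to 6.30 in the rest, with GL-1 the lowest. CD7 and THY1 were shared with GL-1 and CLL-1390, at 10.31, 8.92 and 9.25 for CD7 and 11.19, 9.28 and 9.98 for THY1.

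CD80, the ligand of CD28 and CTLA4 on antigen-presenting cells, was itself called above in CLGL-90. It read 12.76 there, 10.08 in 17-71, 8.44 in CL-1, 4.80 in GL-1 and 4.52 in CLL-1390. All 3 of its probe sets passed the threshold, with gaps of 2.41 to 2.68. PVRIG, an inhibitory receptor of T and natural killer cells, read 9.39 in CLGL-90 and at most 6.54 in the others (gap 2.86). TIGIT, which binds related ligands, read 8.22 against 6.18 to 6.83, under the threshold. Inhibitory receptors were thus not uniform. CTLA4 and TIGIT were highest in CLGL-90, with gaps of 1.80 and 1.40. PDCD1 read 6.95 against 6.40 to 6.93, LAG3 8.13 against 6.25 to 8.97, and HAVCR2 10.59 against 10.14 to 10.90. PDCD1 and HAVCR2 were nearly level across the lines, so they cannot place CLGL-90.

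FOXP3, the transcription factor that defines regulatory T cells, was the only member called of 26 measured lymphocyte transcription factors, against 0.668% above and 0.159% below over all genes. It read 9.49 in CLGL-90, 5.44 in 17-71, 5.32 in CL-1, 5.36 in GL-1 and 5.32 in CLL-1390. The other 4 lines were at background and almost level, and the gap of 4.05 rests on 1 probe set. IL2RA, the high-affinity interleukin-2 receptor chain that regulatory T cells carry, read 6.82 in CLGL-90 and 8.35 in 17-71, and TNFRSF18 (GITR) read 8.50 in CLGL-90 against at most 7.20. IKZF2 (Helios) was level, at 8.74 in CLGL-90 and 7.91 to 8.59 elsewhere.

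The factors that direct the cytotoxic program were less distinct than its products. TBX21, which encodes T-bet, read 8.46 in CLGL-90 and 8.59 in CL-1, and 5.79, 5.92 and 6.42 in 17-71, GL-1 and CLL-1390. CL-1 thus had T-bet transcript without GZMA, GZMB or PRF1 over background. EOMES, its relative, read 7.88 in CLGL-90 and 6.49 to 7.33 in the others. PRDM1, encoding Blimp-1, read 8.88 in CLGL-90 and 10.48 in CL-1. LEF1, a factor of immature and naive T cells, was at background in CLGL-90 (4.95), 17-71 (4.94) and CL-1 (4.45), and high in GL-1 (9.00) and CLL-1390 (10.83). TOX read 7.92 in CLGL-90, 10.63 in GL-1 and 11.72 in CLL-1390. MYB, a factor of immature blood cells, read 8.05 in CLGL-90 and 7.31 in 17-71, against 11.23 to 12.01 in the other 3.

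TCF4, an E protein of B cells and plasmacytoid dendritic cells, was low in CLGL-90 alone. It read 4.41 there, 9.97 in 17-71, 10.71 in CL-1, 11.33 in GL-1 and 8.39 in CLL-1390. The gap of 3.99 fell to 1.64 with the arrays floored at their controls, so only part of it lies over background. MEF2C, a factor active in early lymphoid and B cells, was also called below (6.68 in CLGL-90, at least 8.71 in the others). Of its 5 probe sets, 2 had gaps past the threshold (2.03 and 2.26), and the one that read at background on every array had -0.46. The call was lost by the median of the probe sets (1.64), with the floor at the controls (1.95) and without probe sets shared between transcripts, where only the one at background is left.

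None of 35 cytokine receptor and JAK-STAT genes was called, at 0.668% above and 0.159% below over all genes, and the median difference was 0.16. IL2RB, the receptor chain through which interleukin-2 and interleukin-15 act on killer cells, read 10.86 in CLGL-90, 6.43 in 17-71, 9.22 in CL-1, 5.89 in GL-1 and 7.02 in CLL-1390. CISH, a feedback inhibitor induced by STAT5, read 10.25 in CLGL-90, 6.12 in 17-71, 5.84 in CL-1, 8.59 in GL-1 and 6.66 in CLL-1390 (gap 1.66). SOCS2, another target of STAT5, was shared with GL-1 (9.40 and 9.08). STAT3 is often mutated in human LGL leukemia. Its transcript was lowest in CLGL-90, at 9.11, against 10.54 in 17-71, 10.93 in CL-1, 10.02 in GL-1 and 10.91 in CLL-1390. All 4 STAT3 probe sets placed CLGL-90 lowest, with gaps of 0.91 to 1.97 that stayed under the threshold.

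Of the 101 genes above, 82 (81.2%) belonged to no list, as did 22 of the 24 below (91.7%), against 97.4% of all genes. Several of them with the largest gaps are known from other tissues. HAPLN1, a link protein that ties hyaluronan to proteoglycans in cartilage, read 13.70 in CLGL-90, 6.03 in 17-71, 5.68 in CL-1, 5.80 in GL-1 and 5.87 in CLL-1390. KCNIP4, a subunit of neuronal potassium channels, read 11.66 in CLGL-90 and 4.09, 3.90, 3.95 and 4.36 in 17-71, CL-1, GL-1 and CLL-1390. SLC24A5, a cation exchanger of pigment cells, read 13.49 in CLGL-90, 6.89 in 17-71, 7.62 in CL-1, 5.35 in GL-1 and 5.76 in CLL-1390. Their gaps were 7.67, 7.30 and 5.87, each from 1 probe set. BRINP3, a gene of the nervous system, read 10.17 in CLGL-90 and 3.45 to 3.98 elsewhere, and its second probe set had the wider gap (7.18 against 6.19).

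Further genes of this kind had smaller gaps. PID1, an adaptor studied in fat cells, read 11.39 in CLGL-90 and at most 6.19 in the others (gap 5.19). RP1, a protein of photoreceptors, read 8.41 in CLGL-90 and 3.11 to 3.34 elsewhere, and a floor at the controls reduced its gap to 1.71, under the threshold. RIMS2, a protein of the presynaptic membrane, had gaps of 3.90 and 4.49 by its 2 probe sets. SNAP25, the neuronal fusion protein, read 7.16 against 3.88 to 4.07, and kept a gap of 0.46 with the floor. The adhesion genes CDH12 (9.50 against at most 5.50) and CDH7 (10.21 against at most 6.90) and the peptide genes CGA (9.15 against at most 5.65) and NPPC (10.58 against at most 7.09) belong with these. KRT18, an epithelial keratin, read 11.55 in CLGL-90, 9.40 in 17-71, 5.99 in CL-1, 5.83 in GL-1 and 6.26 in CLL-1390. Its partner KRT8 (3.19) and the epithelial markers EPCAM (5.21) and CDH1 (5.84) were at background in CLGL-90, and KRT18 was the 1 called member of its list.

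Some called genes bear on drug handling, growth control and metabolism. ABCB1, the efflux pump P-glycoprotein, read 8.96 in CLGL-90, 4.54 in 17-71, 3.97 in CL-1, 3.97 in GL-1 and 4.21 in CLL-1390, a gap of 4.41. A floor at the controls left 2.26 of that gap. RB1, the retinoblastoma tumour suppressor, read 9.87 in CLGL-90, 7.23 in 17-71, 5.50 in CL-1, 7.42 in GL-1 and 6.67 in CLL-1390. Both RB1 probe sets passed, with gaps of 2.46 and 2.80, and RB1 was the only called member of 16 tumour suppressor and cell cycle brake genes (0.668% above and 0.159% below over all genes). PFKM, the muscle form of phosphofructokinase, read 11.86 in CLGL-90 and at most 7.30 elsewhere (gap 4.56). The interferon-inducible genes TRIM22 and GBP5 were above, at 10.51 against at most 6.34 and 11.03 against at most 7.79. LOC606863, for which the reference table lists IRGM as a synonym, was also above (7.82 against at most 5.01; 1.12 with the floor), and its neighbour IFGGC1 lay just outside (gap 1.99).

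Proliferation genes set the line slightly low. None of 29 was called, CLGL-90 was the lowest line for 12 and the highest for 2, against 14.8% and 27.2% of all genes, and the median difference was -0.26. MCM4, a subunit of the replication helicase, read 10.66 in CLGL-90 against 11.81 to 12.42, and MCM2 8.15 against 9.16 to 9.94. BIRC5, the mitotic protein survivin, was the opposite case (12.75 against 10.80 to 11.85). None of 13 class II presentation genes was called (median difference -0.66). DLA-DRA, a class II alpha chain, read 6.51 in CLGL-90, 6.47 in GL-1 and 6.47 in CLL-1390, and 14.05 in 17-71 and 13.00 in CL-1. DLA-DQA1 and DLA-DQB1 had the same high and low lines. CD74, the invariant chain, read 7.62 in CLGL-90, over background and over GL-1 (5.66) and CLL-1390 (5.89). CTSS, a protease that degrades that chain, read 11.97 against 8.94 and 9.13 in these lines, and CIITA, the class II transactivator, was level (9.52 against 9.20 to 9.76). None of 14 class I genes was called, and B2M read 14.32 against 13.90 to 14.41.

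The 24 genes below included several enzymes. CTPS2, a CTP synthase, read 4.25 in CLGL-90, 9.63 in 17-71, 10.50 in CL-1, 9.79 in GL-1 and 9.78 in CLL-1390. PECR, a peroxisomal enoyl-CoA reductase, read 5.97 in CLGL-90, 11.20 in 17-71, 12.15 in CL-1, 11.39 in GL-1 and 11.00 in CLL-1390. The gaps were 5.38 and 5.03, and in both genes the other 4 lines lay close together with CLGL-90 at background. CTPS2 has 4 probe sets, one with a gap of 2.07 and a pair at background on every array with none, and by their median its gap was 1.97, under the threshold. ASNS, which makes asparagine and whose lack makes lymphoid tumours sensitive to asparaginase, read 6.45 in CLGL-90, 10.39 in 17-71, 12.70 in CL-1, 13.19 in GL-1 and 13.48 in CLL-1390. All 3 ASNS probe sets passed, with gaps of 3.04 to 3.94. RNASET2, a lysosomal ribonuclease, read 6.96 in CLGL-90 and 11.13 to 12.27 elsewhere (gap 4.18).

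The remaining genes below had other roles. UBE2E3, a ubiquitin-conjugating enzyme, read 7.16 in CLGL-90, 11.49 in 17-71, 11.71 in CL-1, 12.42 in GL-1 and 13.14 in CLL-1390, with gaps of 4.33 and 4.14 by its 2 probe sets. LAPTM5, a lysosomal protein that lowers surface T-cell and B-cell receptors, read 6.44 in CLGL-90, 12.51 in 17-71, 9.90 in CL-1, 12.90 in GL-1 and 12.43 in CLL-1390. Its probe sets disagreed. A second had a gap of 2.07, but the third read 10.41 in CLGL-90, inside the range of 9.51 to 11.02 of the other lines. FNBP1L and SH3BGRL lost their call with the floor at the controls, at 1.17 and 1.94 in place of 3.30 and 3.42, as did MCPH1 (1.99) and NEDD4L (1.44). MTAP, an enzyme of methionine salvage, lay just outside (7.83 against 9.62 to 11.95, gap 1.80). Its other probe set read 4.26 in CLGL-90 and 9.69 to 12.77 elsewhere, a gap of 5.43.

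**Figure D4:**
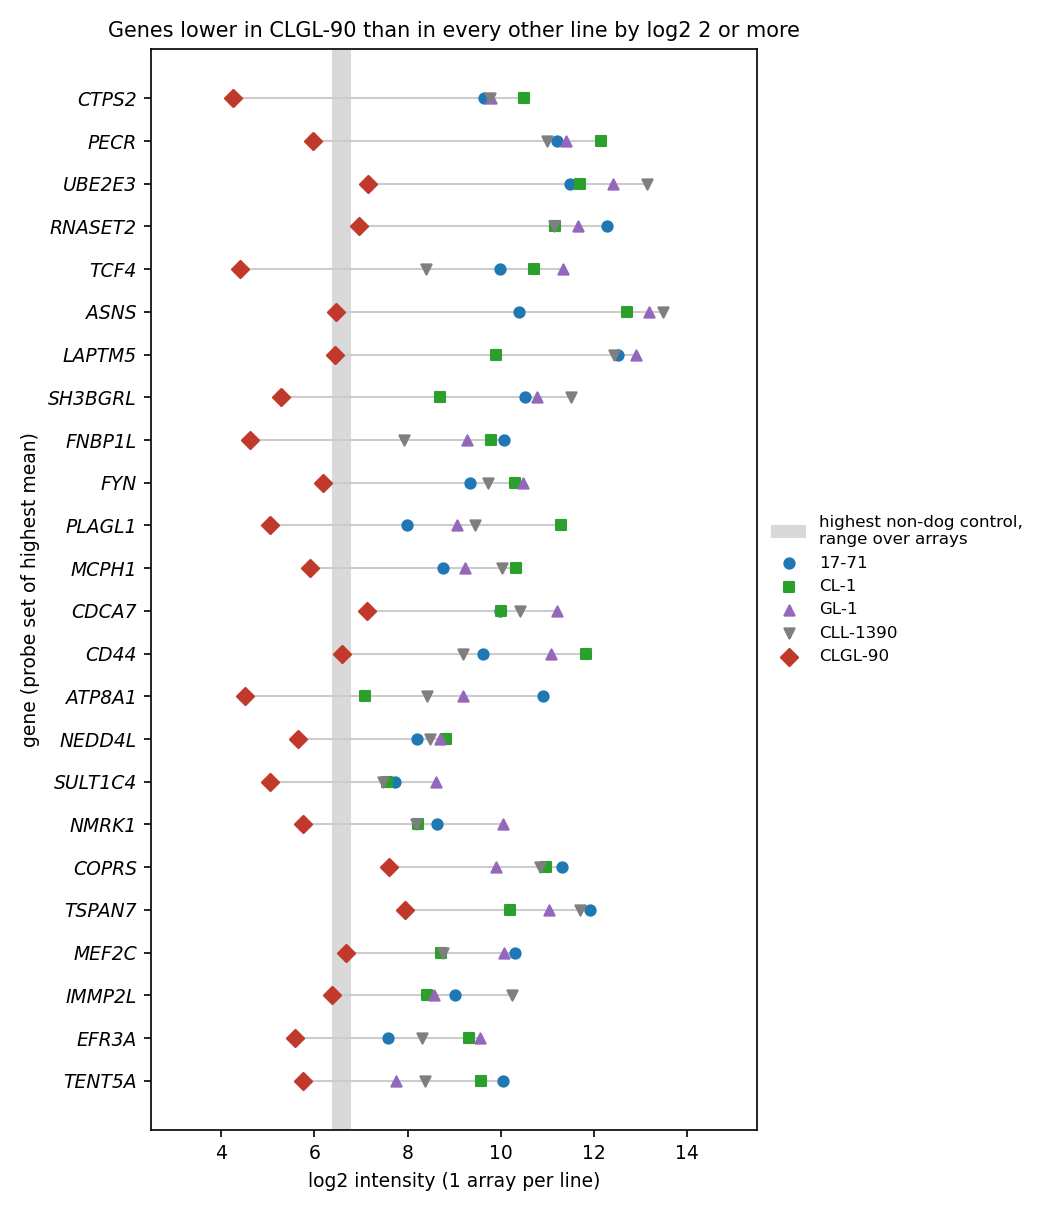
Log2 intensity of the 24 genes called below in CLGL-90, ordered by gap, 1 point per line and gene, with the grey band as the range of the highest non-dog control (6.39 to 6.76). In 19 of the 24 genes the diamond of CLGL-90 lies at or under its own control, and the distance to the nearest other line runs from 5.38 for CTPS2 to 2.002 for TENT5A.

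The threshold divided genes of like gap. Just inside it above lay CASP12 (2.01), COBLL1 (2.02) and RGS2 (2.03), and just outside F2R (1.998), IFGGC1 (1.99) and RAB25 (1.96). On the other side, TENT5A (2.002) and EFR3A (2.01) were just inside and SNX30 (1.97) just outside. CASP12, COBLL1 and RGS2 lost their call with the arrays centred on their medians, and TENT5A and EFR3A with the floor at the controls (0.998 and 0.828).

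Position had no part in the calls. Of the 100 genes above with a place in the reference gene order, 15 (15%) stood next to another gene called above, counting the genes on the array, and these formed 8 adjacent pairs. None of the 24 genes below did so. A matching share over all 15104 genes with a place was not computed, so these counts are descriptive only. The pairs included CD3G beside CD3D and, in the CC chemokine cluster, CCL4 beside CCL3 and CCL16 beside CCL5. The chemokine genes between those pairs did not share the difference: LOC480600 read 8.19 in CLGL-90 against 7.11 to 7.44, LOC480601 8.61 against 8.52 to 8.62, CCL23 7.65 against 6.54 to 6.82, and CCL14 8.99 against 8.25 to 8.71. HAPLN1 lay beside EDIL3, a matrix protein gene with 8.55 in CLGL-90 and at most 4.62 elsewhere. With the floor at the controls EDIL3 (1.85) and CCL16 (0.61) fell under the threshold.

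Another run held regulators of G-protein signalling, which switch off chemokine receptor signals. RGS2 read 12.83 in CLGL-90 against at most 10.81, RGS13 8.50 against at most 3.72 (gap 1.80 with the floor), and RGS1 13.02 against at most 10.93. RGS18, the next gene, was at background in CLGL-90 (4.50) and read 10.85 in GL-1, and BRINP3 followed it. LOC475935 and LOC475936, protein-coding entries between IFITM5 and B4GALNT4, were another pair. LOC475935 read 13.83 in CLGL-90, 6.12 in 17-71, 5.16 in CL-1, 5.63 in GL-1 and 5.99 in CLL-1390, the gap of 7.70 being next after that of DPP4. LOC475936 read 10.72 against 7.19 to 7.72. LOC606890 beside them read 8.47 in CLGL-90 and 7.43 in CL-1, and 6.02 to 6.15 in the others. B4GALNT4 read 7.56 in CLGL-90 against 5.17 to 5.83, a gap of 1.73, under the threshold.

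Agreement between probe sets was a measure that the choice of genes did not use. Of the 101 genes above, 54 had 1 probe set and could not be checked. The other 47 had 71 further probe sets, of which 34 also showed a gap of 2 or more, 45 of 1 or more, and 59 a gap over 0. For comparison, 242 of all 42924 probe sets (0.564%) were above, as were 70 of the 13670 (0.512%) without a single gene name. Of the 26 further probe sets with a gap under 1, 21 lay at or under the highest control on every array. Every probe set passed in 22 genes, among them DPP4, TRAT1, CCL3, GZMB, CD27, CD80, CD3D, RB1 and PCBD1. No other probe set reached a gap of 1 in 11 genes, GZMK, LOC611455 and KRT24 included. The second GZMK probe set read 4.86 in CLGL-90 and 4.49 to 4.66 elsewhere, all at background, so it gave no measure of the gene.

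Below, 7 of the 24 genes had 1 probe set. The other 17 had 30 further probe sets, of which 9 showed a gap of 2 or more, 17 of 1 or more and 21 a gap over 0, against 56 of 42924 (0.13%) overall. Every probe set passed in 4 genes, and no other probe set reached 1 in FNBP1L, MCPH1 and NEDD4L. Agreement was thus partial on both sides, with another probe set at 1 or more in 36 of 47 genes above and 14 of 17 below. On the lower side, 5 of the 13 probe sets with a gap under 1 lay at or under control on every array.

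**Figure D5:**
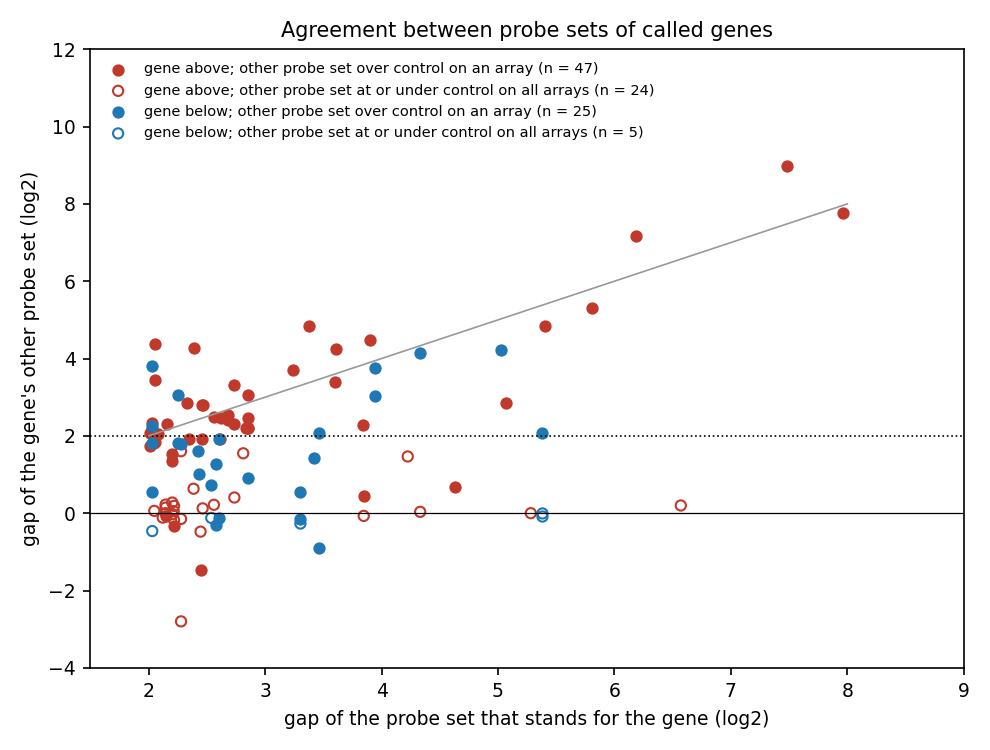
Gap of each further probe set of a called gene (vertical, log2) against the gap of the probe set that stood for the gene (horizontal, log2), red for genes above and blue for genes below; open circles are probe sets at or under the highest control on all arrays. The grey line marks equal gaps and the dotted line a gap of 2, and TRAT1 at 8.98 and DPP4 at 7.75 stand at the upper right, while many open circles lie near 0.

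CLGL-90 also shared separations with single lines, counted where both lines differed from the other 3 by 2 or more in the same direction. With CL-1 there were 27 genes above (0.179%) and 19 below (0.126%), with 17-71 13 and 13 (0.086% each), with CLL-1390 9 (0.0595%) and 5 (0.0331%), and with GL-1 7 (0.0463%) and 5 (0.0331%). The genes shared with CL-1 above included CD247, SH2D1A, CTLA4, CD28, ICOS, IL2RB and TBX21. CADM1, an adhesion molecule, led them with 10.77 in CLGL-90, 10.38 in CL-1 and at most 4.80 elsewhere. Low in both were BTK and SYK, kinases of B-cell receptor signalling. BTK read 4.68 in CLGL-90 and 3.93 in CL-1 against 11.23 to 11.52, and SYK 6.30 and 5.43 against 9.33 to 10.97. BIRC3, an inhibitor of apoptosis, read 4.42 and 4.35 in these lines and 13.25 in 17-71. Of 23 measured death receptor, caspase and BCL2 family genes, none was called in CLGL-90 alone, at 0.668% above and 0.159% below over all genes (median difference -0.11).

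With 17-71, CLGL-90 shared CD2, KRT18, BLNK, FGR, CD53 and BCL2A1. BLNK, the adaptor of the B-cell receptor, read 9.90 in CLGL-90, 8.12 in 17-71 and 5.35 to 5.68 in the others, the highest value lying in the LGL line. BCL2A1, an anti-apoptotic BCL2 relative, read 13.36 in CLGL-90 and 13.85 in 17-71, 11.34 in GL-1, and 5.92 and 6.28 in CL-1 and CLL-1390. With GL-1 it shared LOC480788, GZMB, SOCS2 and JCHAIN, the immunoglobulin joining chain gene, at 11.75 and 11.96 against 9.31 to 9.52. FABP5, a fatty acid carrier, was low in both (4.38 and 4.14, against 11.20 to 13.96). With CLL-1390 it shared LOC609263, CTSW, ZNF521 and the fatty acid desaturases FADS1 (12.40 and 10.77 against at most 6.76) and FADS2 (8.17 and 8.07 against at most 5.86).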

How the data were processed

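Total RNA of 5 canine lymphoid cell lines was measured on Affymetrix canine arrays, 1 per line. The authors deposited log2 intensities for each probe set. Their background correction, normalization and summary used GCRMA, as the submitters' processing notes state; for its version and any filter, "not given in the sources used here" applies. After 111 Affymetrix controls were dropped from 43035 probe sets, 29254 had 1 gene symbol (15115 genes), 439 several and 13231 none. Assembly UU_Cfam_GSD_1.0's gene table held the IDs of 27680 (94.6%) and served for names and gene order only. The probe set with the highest mean stood for a gene, and low values were not filtered. With 1 array per line there is no replicate error, and the number of arrays limits precision.

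Gaps, list counts and list medians (CLGL-90 minus the median of the others) were computed in Python 3.11.15 with pandas 2.3.3 and numpy 2.4.6. The gap rule alone was run on simulated data with large known shifts, which checks the code and not the results. The members and gene lists were chosen with earlier results of these data known. Named were the 6 markers of the label, the 15 largest gaps above and 10 below over background, up to 6 called members per list, called neighbours, and the T-cell receptor, CD4, CD8 and granule genes whatever their value; other genes were chosen after their values were seen. Alternatives were other probe sets or summaries for a gene, filters at log2 5 and 7, a floor at the controls, quantile normalization, centring, the median line as comparator, gaps of log2 1 and 3, and leaving out each line.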

Additional observations from a re-analysis of the deposited data

How the results depend on the processing

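The 101 genes above became 96 to 126, and the 24 below 18 to 28, with quantile normalization, centring on array medians, filters at log2 5 or 7, or the probe set of highest variance or the median of a gene's probe sets. Without probe sets shared between transcripts (12312 genes) 81 were above and 18 below. Flooring each array at its highest non-dog control gave 80 and 11, since 19 of the genes below had CLGL-90 at or under that control. Against the median of the other 4 lines the counts were 245 and 155 (61.25% above in place of 80.8%). A gap of log2 1 gave 229 and 111, and one of log2 3 gave 49 and 10. Leaving out 1 other line gave 117 to 133 above and 30 to 49 below (45 without 17-71, 49 without CL-1, 30 without GL-1, 39 without CLL-1390), as fewer lines remain to be passed. The filters, the median line as comparator and leaving out a line cannot lower a gap, so the values under them stayed by construction. With these included, of 486 gaps of 38 named genes under the alternatives, 478 stayed past the threshold, 8 did not and 0 changed sign. Beside CCL4, TCF4, FNBP1L and SH3BGRL with the floor, these were CD44 (1.91), CTPS2 (1.97) and FNBP1L (1.01) by the median of probe sets and FASLG (1.55) without shared probe sets. The median difference of class II presentation, -0.66, was -0.01 without 17-71 and -0.09 without CL-1. Without shared probe sets the median difference of granule contents went from 2.16 to 3.27 and that of the receptor complex from 0.10 to 0.87, and the filter at log2 7 moved surface receptors from 0.75 to 1.54. No paired analysis was possible because each line has 1 array and the labels carry no replicate numbers.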

Other observations

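Of genes not called by the probe set that stood for them, 28 had another probe set with CLGL-90 above by 2 or more, and 4 had one with CLGL-90 below. EIF2S3, a subunit of a translation initiation factor, was the widest case. The probe set in question read 12.27 in CLGL-90, 4.02 in 17-71, 4.45 in CL-1, 4.07 in GL-1 and 3.92 in CLL-1390, a gap of 7.82, while the brighter probe set of the gene placed CLGL-90 0.26 under the highest other line. SLC12A1, a kidney salt transporter, read 9.10 in CLGL-90 by such a probe set and 3.33 to 3.58 elsewhere. NRCAM, a neuronal adhesion molecule, showed gaps of 3.63 to 3.98 by 3 probe sets. On the lower side, probe sets of HHAT and of BIRC2, an inhibitor of apoptosis, had gaps of 2.03 and 2.02.

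Probe sets without a single gene name held 19 of 13670 with CLGL-90 below (0.139%). The entry LOC611813, between NUDT8 and NDUFV1, read 12.67 in CLGL-90 and at most 7.26 elsewhere, with gaps of 5.41 and 4.84 by its probe sets. LOC611455, between PZP and the natural killer cell receptor gene KLRB1, read 10.39 in CLGL-90 and at most 5.11 in the other lines. Its second probe set was at background on all arrays. LOC608238, a C_region entry between PRAME and RSPH14, read 10.39 in CLGL-90 against 7.92 to 8.17, and its other probe set was at background on all arrays, so by the median of both the gap was 1.17. These entries carry no further name in the tables used here.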
